A study of Mus musculus with 8 samples.

Results

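Genes of cholesterol and fatty acid synthesis were examined in regulatory T cells (Tregs) sorted by TNFR2, the second receptor for tumor necrosis factor. The set was a list of 38 genes chosen by symbol, and 36 of them were among the 20172 Ensembl genes of the table. They comprised 7 genes of the mevalonate arm, 11 of the sterol arm, 5 of sterol sensing and transport, 9 of fatty acid synthesis and 4 of esterification and efflux. *Scd1* and *Fads2*, a desaturase of saturated fatty acids and a desaturase of polyunsaturated fatty acids, were not analysed here. All 36 genes passed the filter used for testing, a mean of at least 10 normalized counts over the libraries.

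The cells came from spleens of adult mice of the genotype Foxp3 YFP-cre, female in the series' design text (the study's methods name both sexes without saying which gave these cells), in which a yellow fluorescent protein and Cre recombinase are made from the *Foxp3* locus. Both groups carried this allele and neither was treated. CD4+ YFP+ cells were sorted into a TNFR2+ and a TNFR2- fraction, with 4 libraries of each (replicates 1 to 4). The labels do not say whether replicates came from separate mice. The study's figure legend gives n = 4 after naming the mice, without saying that each library had its own mouse. The p-values therefore measure the spread between these libraries. These are bulk libraries, and a change in the share of cells that express a gene cannot be told apart from a change in RNA per cell.

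The cell makes cholesterol from acetyl-CoA through mevalonate, farnesyl diphosphate, squalene and lanosterol. The transcription factors SREBP2 and SREBP1, encoded by *Srebf2* and *Srebf1*, are held in the endoplasmic reticulum by SCAP and INSIG proteins while sterols are plentiful, and when released they activate genes of sterol synthesis, of sterol uptake and of fatty acid synthesis. Surplus cholesterol is esterified by SOAT1 or exported by ABC transporters that the liver X receptors induce. Proliferating lymphocytes are known to use both pathways for new membrane.

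The estimated depth lay between 9100000 and 12110000 reads per library. Values are normalized counts, which the authors scaled between libraries with DESeq2. Groups were compared with limma on log2(normalized count + 1) over 13990 genes, with Benjamini-Hochberg adjustment over all of them and a threshold of 0.05. A log2 fold change (log2FC) is positive when TNFR2+ Tregs were higher. In this comparison 633 genes were higher and 474 lower, against 904 and 309 when libraries were rescaled to equal sums, which moved the median log2FC of all genes from -0.01 to 0.12. *Tnfrsf1b*, the gene of TNFR2, was higher in TNFR2+ Tregs (log2FC 0.90, adjusted p = 0.00449), and the log2FC of *Foxp3* was -0.23 (adjusted p = 0.232). The Y-linked genes *Kdm5d* and *Uty* had between 72.2 and 257.1 normalized counts in all 8 libraries, beside 16369 to 18154 for *Xist* in TNFR2+ and 10228 to 13795 in TNFR2- libraries. *Ddx3y* and *Eif2s3y*, also Y-linked, had no values here, and no sex was assigned to the libraries. Of 16 cell cycle genes 11 rose in TNFR2+ Tregs, *Mki67* among them (log2FC 2.84, adjusted p = 3.52e-04), and their summed level was 9472 to 14484 in TNFR2+ against 3656 to 5430 in TNFR2- libraries. B cell markers (10 of 12 in the table) summed to 3682 to 5765 in TNFR2+ and 1730 to 2752 in TNFR2- libraries. Most of this was *Ighm*, and the other 9 summed to 188.9 to 248.8 and 120.4 to 348.4, which overlap. Myeloid markers (14 of 24) summed to 1140 to 1795 and 1645 to 2093, which overlap. *Cebpb* made up most of this sum, with means of 993.6 in TNFR2+ and 1188 in TNFR2- Tregs. Of the 9 myeloid markers tested, *Xcr1* was called lower and 8 were not called. The means of *Xcr1* were 138.5 in TNFR2+ and 252.4 in TNFR2- Tregs (adjusted p = 0.0498 by limma), and it was called in 1 of 8 fits without 1 library. The part that these genes have in the results that follow was not tested.

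Among the 36 genes, *Scd2* rose and *Srebf2* fell in TNFR2+ Tregs, and 34 did not pass the threshold. One gene of 36 higher and 1 lower compare with 4.52% of all tested genes called higher and 3.39% called lower. The 18 enzymes of the mevalonate and sterol arms held no called gene in either direction, the 9 genes of fatty acid synthesis held *Scd2*, the 5 genes of sensing and transport held *Srebf2*, and the 4 genes of esterification and efflux held none. At an unadjusted p under 0.05, 4 members were higher (*Pmvk*, *Nsdhl*, *Scd2* and *Fads1*) and 4 lower (*Mvk*, *Tm7sf2*, *Srebf2* and *Acss2*), beside 12.3% and 10.7% of all tested genes. The 2 groups of libraries did not overlap for *Scd2* and *Fads1*, which were higher in TNFR2+ Tregs, and for *Sqle*, *Tm7sf2* and *Srebf2*, which were lower, beside 8.08% and 7.29% of all tested genes. These shares over 36 genes were near those over all genes, and the median log2FC of the members was -0.05.

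**Figure D1:**
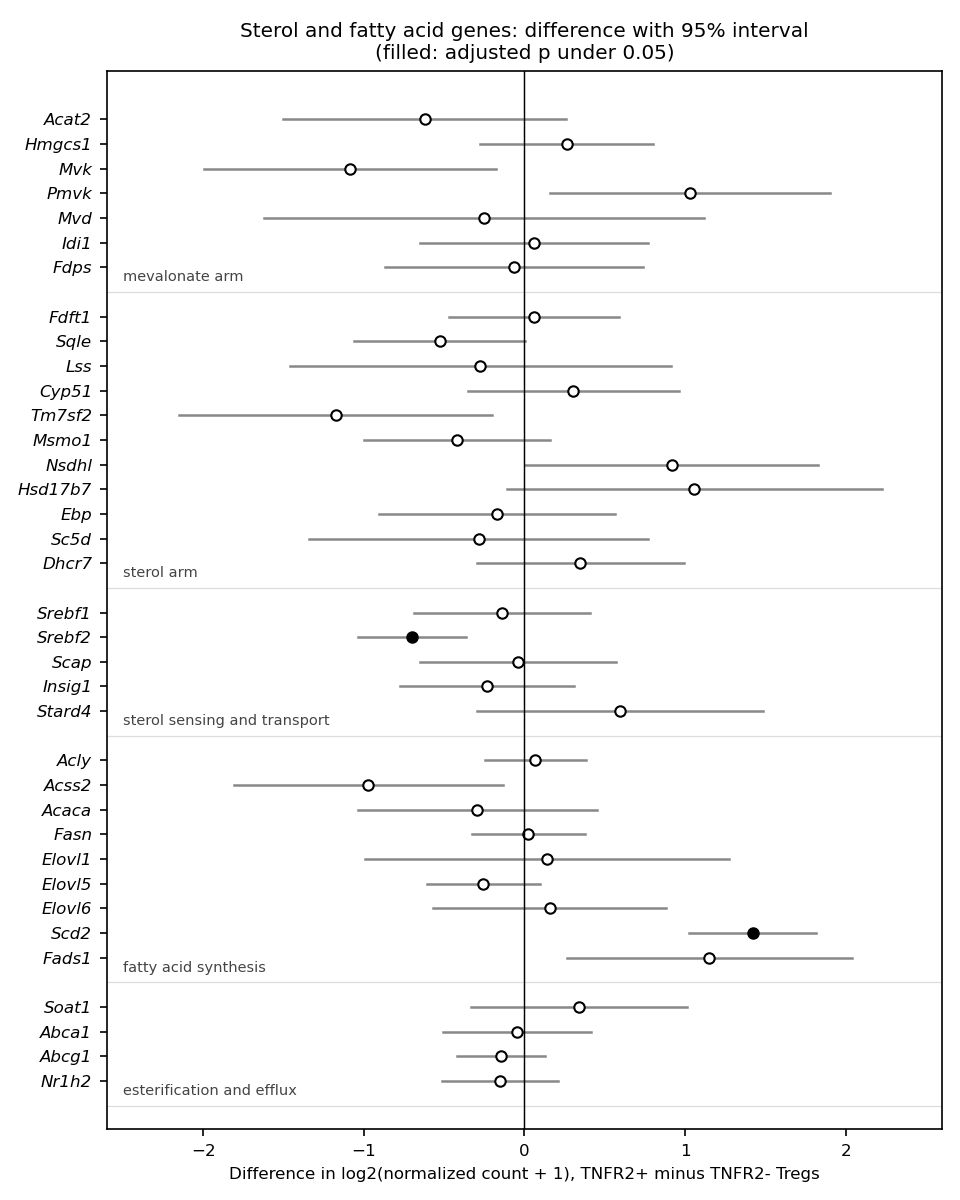
Difference between TNFR2+ and TNFR2- Tregs for each of the 36 genes, by pathway branch. The x axis gives the difference in log2(normalized count + 1) and the bars its 95% interval from limma, with 4 libraries per group; filled points passed an adjusted p of 0.05, and only *Scd2* at 1.42 and *Srebf2* at -0.70 did so.

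Promoter sequences are shown for *Hmgcs1*, the 1 member whose window held the sterol regulatory element TCACNCCAC, the short motif that SREBP proteins bind, and for *Srebf2*, a called gene whose window held no such element but a shorter stretch of its letters. Sequences came from RefSeq on GRCm38.p6, for 30 of the 38 genes. Entries for *Scd2*, *Fads1*, *Sqle*, *Fdft1*, *Fdps*, *Stard4*, *Abcg1* and *Scd1* are missing. Capitals mark the element in *Hmgcs1*, the stretch TCACCCCA in *Srebf2*, chosen after its sequence had been read, and CCAAT boxes in both, the site of the factor NF-Y, read on either strand (ATTGG on the reverse). The *Hmgcs1* sequence is the 250 bases before the RefSeq start, chr13:119690101-119690350 on the + strand. The *Srebf2* sequence is chr15:82147019-82147180 on the + strand, the first 162 bases of its window, which ends where the GENCODE gene begins.
Hmgcs1: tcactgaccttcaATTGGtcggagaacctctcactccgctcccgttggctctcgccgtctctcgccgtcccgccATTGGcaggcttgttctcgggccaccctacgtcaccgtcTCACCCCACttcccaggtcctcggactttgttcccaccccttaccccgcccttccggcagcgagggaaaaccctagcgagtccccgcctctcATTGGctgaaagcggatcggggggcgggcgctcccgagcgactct
Srebf2: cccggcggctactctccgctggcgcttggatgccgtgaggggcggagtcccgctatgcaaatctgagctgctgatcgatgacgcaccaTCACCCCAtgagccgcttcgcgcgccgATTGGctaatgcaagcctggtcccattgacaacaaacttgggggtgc

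All motifs were searched on both strands of the 250 bases. In *Hmgcs1* the element TCACNCCAC began 137 bases before the start, and it was found in the window of 1 of 30 members against 1.22% of all 27025 genes with a promoter and 1.19% of 9543 tested genes. In *Srebf2* only the shorter form TCACCCCA was present, 162 bases before the start. This shorter form overlaps the first and was found in 2 of 30 members and in 1.54% of all genes. The CCAAT box was found in 22 of 30 members (73.3%), against 37.5% of all genes and 40.8% of tested genes. Among genes with a promoter, it was present in all 9 of the sterol arm, 5 of 6 of the mevalonate arm and 4 of 8 of fatty acid synthesis. Genes with several windows were counted once, by a match in any of them, and *Dhcr7* also had windows without the box. The GC box GGGCGG, read by the factor SP1, was found in 23 of 30 members (76.7%), against 62.9% of tested genes. Counted in the same way, it was again present in all 9 sterol arm genes, although a *Dhcr7* window had none. Of these 30 genes, 1 was called between the populations, *Srebf2*. A match of letters is a description of these windows and not evidence of binding.

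Of the sensing genes, *Srebf2* (ENSMUSG00000022463, chr15:82147181-82205379, + strand) encodes SREBP2, the main activator of sterol synthesis. It had 1118, 1345, 1303 and 1442 normalized counts in TNFR2+ replicates 1 to 4 and 1993, 2383, 1612 and 2561 in TNFR2- replicates 1 to 4. Every TNFR2+ library was below every TNFR2- library. The means were 1302 ± 136 and 2137 ± 423 (SD, n = 4), 1.64-fold lower in TNFR2+ Tregs, with a log2FC of -0.70 (95% interval -1.03 to -0.36, adjusted p = 0.0150 by limma). The call was lost without TNFR2+ replicate 1 (adjusted p = 0.0504), without TNFR2- replicate 2 (adjusted p = 0.0543) and without the intensity trend of the variances (adjusted p = 0.0917), and the log2FC without any one library stayed between -0.83 and -0.60.

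*Srebf1*, which encodes SREBP1, had 384.0 to 832.7 normalized counts in TNFR2+ and 500.1 to 963.4 in TNFR2- libraries. The populations overlapped, and the log2FC was -0.14 (95% interval -0.69 to 0.41). *Scap*, the escort of both SREBP proteins to the Golgi, had a log2FC of -0.04 (-0.65 to 0.57). *Insig1*, the sterol-responsive anchor that keeps SCAP in the endoplasmic reticulum, had 424.7, 429.4, 416.1 and 423.6 normalized counts in TNFR2+ and 577.6, 272.9, 713.4 and 544.0 in TNFR2- libraries. The TNFR2+ libraries were almost identical and lay inside the wide TNFR2- range, with a log2FC of -0.23 (adjusted p = 0.637). *Stard4*, a carrier of cholesterol between membranes, had 119.2 to 218.3 in TNFR2+ and 54.8 to 239.5 in TNFR2- libraries and a log2FC of 0.60 (adjusted p = 0.427).

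The sterol arm and its neighbours were also followed in a list of 18 further genes of sterol synthesis and uptake, of which 14 were tested. Of these, *Mylip* fell in TNFR2+ Tregs, none rose, and the median log2FC was -0.10. Over all tested genes 3.39% were called lower and 4.52% higher, and the median was -0.01. At an unadjusted p under 0.05, 2 of the 14 were higher and 2 lower, beside 12.3% and 10.7% of all tested genes. *Mylip* encodes IDOL, a ubiquitin ligase that liver X receptors induce. It had 427.8, 512.8, 409.6 and 513.5 normalized counts in TNFR2+ and 851.5, 934.0, 629.1 and 1023 in TNFR2- libraries, without overlap (log2FC -0.87, adjusted p = 0.00974), although the call was lost without the intensity trend (adjusted p = 0.0586).

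*Insig2*, the second anchor of SCAP, had 53.0, 42.5, 72.4 and 67.4 normalized counts in TNFR2+ and 20.3, 24.9, 17.8 and 20.7 in TNFR2- libraries. The groups did not overlap, but the adjusted p was 0.0587 (log2FC 1.43), and it was 0.0384 with equal library sums, 0.0443 after rescaling without mitochondrial genes, *Gm26917* and *Gm42418*, and 0.0186 without the intensity trend. The gene was not called under the other 7 settings (adjusted p up to 0.108) or in any of 8 fits without 1 library (0.0786 to 0.158).

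**Figure D2:**
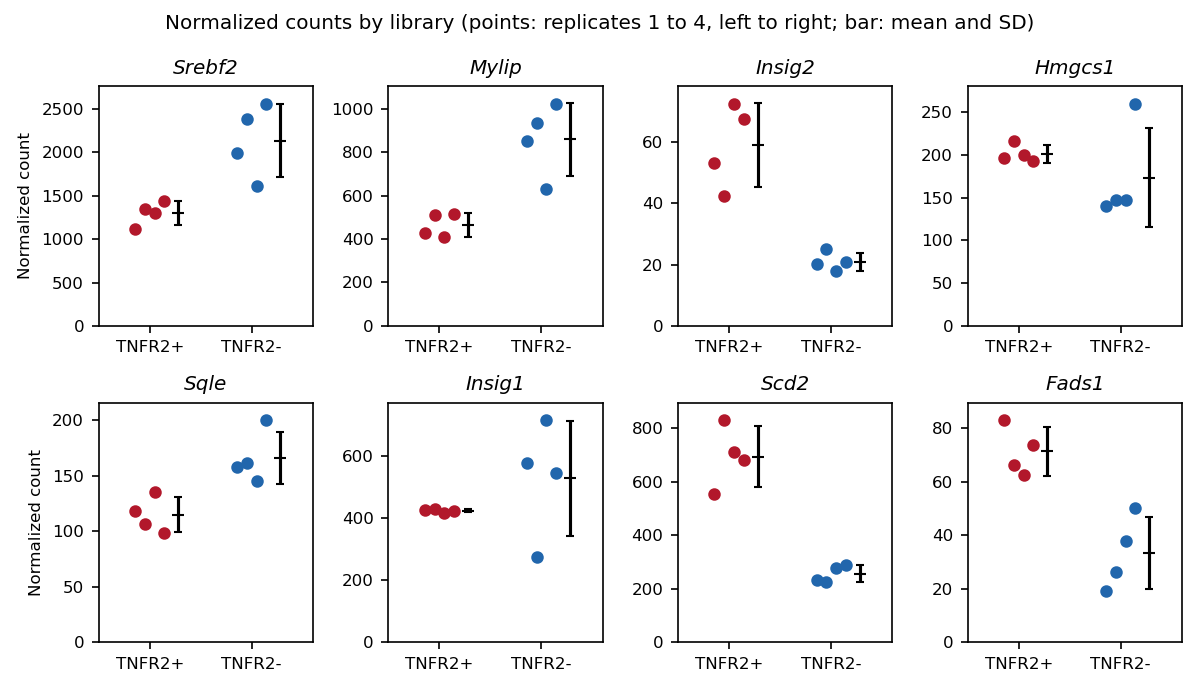
Normalized counts (y axis, from 0) of 8 genes in each TNFR2+ and TNFR2- library, with the mean and SD (n = 4) of each population as bars. *Srebf2*, *Mylip* and *Sqle* lay lower in every TNFR2+ library, *Insig2*, *Scd2* and *Fads1* higher, and *Hmgcs1* and *Insig1* overlapped; of these genes *Srebf2*, *Mylip* and *Scd2* passed the threshold.

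None of the 7 mevalonate genes passed the threshold, and their log2FC ran from -1.09 to 1.03 with a median of -0.06. *Hmgcs1*, which makes HMG-CoA and has the sterol regulatory element shown, had 196.0, 215.8, 200.2 and 193.1 normalized counts in TNFR2+ libraries and 139.8, 146.7, 147.1 and 259.9 in TNFR2- libraries. TNFR2- replicates 1 to 3 were below all TNFR2+ libraries and replicate 4 was above them, and the log2FC was 0.26 (95% interval -0.28 to 0.80). The next pair of steps had log2FC of opposite sign, neither past the threshold. *Mvk*, mevalonate kinase, had 57.0, 38.9, 22.2 and 85.6 in TNFR2+ and 77.3, 100.8, 94.1 and 123.5 in TNFR2- libraries (log2FC -1.09, adjusted p = 0.139). *Pmvk*, phosphomevalonate kinase, which acts next, had 103.7, 93.5, 85.5 and 80.2 in TNFR2+ and 36.9, 40.8, 26.5 and 90.3 in TNFR2- libraries (log2FC 1.03, adjusted p = 0.143). Only TNFR2- replicate 4 overlapped the TNFR2+ range of *Pmvk*, and without it the gene passed the threshold (log2FC 1.38, adjusted p = 0.0477).

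The other mevalonate genes overlapped between populations. *Acat2*, the cytosolic thiolase that starts the pathway, had a log2FC of -0.62 (adjusted p = 0.400), and it has a near-identical copy, *Acat3*, in the table. *Mvd*, the decarboxylase, varied from 10.6 to 106.2 normalized counts within TNFR2- Tregs (log2FC -0.25, 95% interval -1.62 to 1.12). *Idi1*, the isomerase of isopentenyl diphosphate, and *Fdps*, the farnesyl diphosphate synthase, had a log2FC of 0.06 (-0.65 to 0.77) and -0.06 (-0.87 to 0.74). Both have near-identical gene copies, 2 for *Idi1* and 5 for *Fdps*, so reads may be divided between them. *Fdps* shares 1124 exon bases (26.7% of its own) with *Gm43738* on the same strand, a gene without values here.

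The sterol arm likewise held no called gene among 11, with a median log2FC of -0.17. *Sqle*, squalene epoxidase and a rate-limiting step of this arm, had 118.3, 106.9, 135.5 and 98.7 normalized counts in TNFR2+ and 158.1, 161.2, 145.4 and 199.9 in TNFR2- libraries. Its populations did not overlap, yet the 95% interval of its log2FC of -0.53 reached from -1.06 to 0.00 (adjusted p = 0.220). *Tm7sf2*, a sterol reductase acting on the C14 double bond, had 29.8, 33.4, 14.0 and 48.9 in TNFR2+ and 82.3, 57.7, 74.2 and 55.2 in TNFR2- libraries. This was the lowest log2FC of the members (-1.18, adjusted p = 0.135), without overlap, and the gene shares 532 exon bases (12.1% of its own) with *Vps51* on the same strand.

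On the other side, *Hsd17b7*, a ketoreductase of the demethylation complex, had 110.5, 84.8, 47.2 and 25.2 in TNFR2+ and 28.6, 13.9, 40.5 and 34.2 in TNFR2- libraries (log2FC 1.06, adjusted p = 0.266). *Nsdhl*, the sterol dehydrogenase of the same complex, had 87.6 to 154.4 in TNFR2+ and 29.2 to 124.0 in TNFR2- libraries (log2FC 0.92, adjusted p = 0.214). *Msmo1*, the methyl oxidase that acts beside them, had -0.42 (adjusted p = 0.386). *Fdft1*, squalene synthase, had a log2FC of 0.06 (95% interval -0.47 to 0.59), with 18.3% of its exon bases facing *Ctsb* on the opposite strand. For *Lss* (lanosterol synthase), *Cyp51* (the C14 demethylase), *Ebp* (the sterol isomerase), *Sc5d* (the C5 desaturase) and *Dhcr7* (the last reductase), log2FC were -0.27, 0.31, -0.17, -0.28 and 0.35, with adjusted p from 0.533 to 0.816. Intervals in both arms were wide, with a median half-width of 0.84 on the log2 scale for the 18 enzymes against 0.69 for all tested genes, so differences of this size were not detectable here for a typical enzyme.

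One library stood high for the sterol enzymes. TNFR2- replicate 4 held the highest value of all 8 libraries for 8 of the 18 enzymes and the lowest for none. Over all tested genes the same library was highest in 13.4% and lowest in 13.1%. It also had the largest share of normalized counts in *Gm26917* and *Gm42418*, 11.43% against 6.01% to 10.15% in the others. Whether this bears on the sterol enzymes was not tested. The mean level of the 18 genes, relative to each gene's own mean over the libraries on the log2 scale, was -0.14, 0.12, -0.01 and -0.07 in TNFR2+ replicates 1 to 4 and -0.23, -0.18, 0.03 and 0.48 in TNFR2- replicates 1 to 4. TNFR2- Tregs therefore held both the lowest and the highest libraries, and TNFR2+ libraries lay between. The median log2FC of the 18 genes was -0.12 with all libraries, 0.18 without TNFR2- replicate 4 and 0.01 with equal library sums, and no direction can be given for this branch. The same library was also the highest of 8 for *Srebf2*, which passed the threshold without it.

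**Figure D3:**
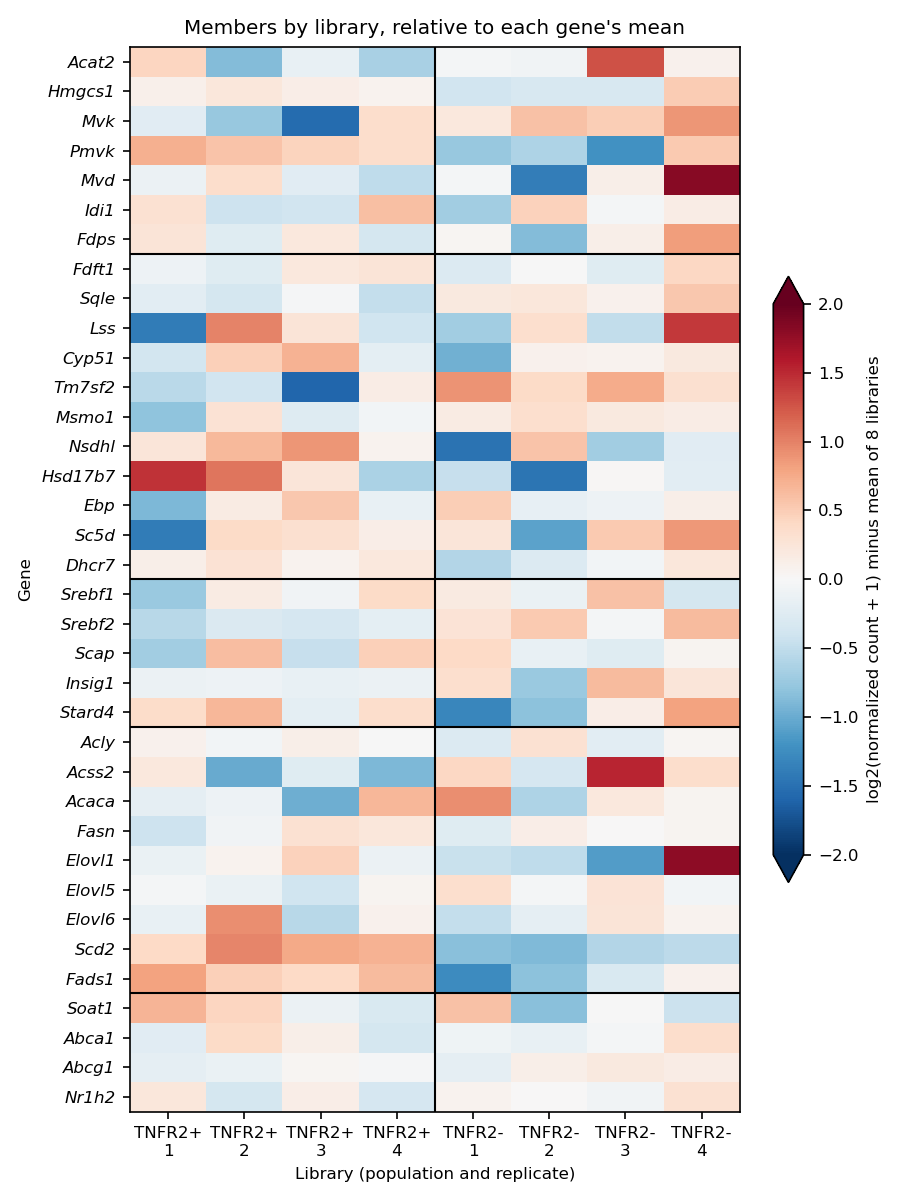
Level of each of the 36 genes (rows, by branch from the mevalonate arm at the top to efflux at the bottom) in each library (columns), as log2(normalized count + 1) minus the gene's mean over 8 libraries; the color scale ends at 2 in either direction. TNFR2- replicate 4 was the highest library for 12 of the 36 genes, and *Scd2* and *Fads1* separated the populations in the fatty acid block.

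The largest difference of the 36 genes was that of a fatty acid desaturase. *Scd2* (ENSMUSG00000025203, chr19:44293674-44306864, + strand) encodes a stearoyl-CoA desaturase, which makes monounsaturated fatty acids. It had 553.9, 829.7, 710.6 and 681.9 normalized counts in TNFR2+ and 234.2, 225.8, 279.2 and 290.2 in TNFR2- libraries. The lowest TNFR2+ library was 1.91 times the highest TNFR2- library. The means were 694.0 ± 113 and 257.4 ± 32.1 (SD, n = 4), 2.70-fold higher in TNFR2+ Tregs, with a log2FC of 1.42 (95% interval 1.03 to 1.82, adjusted p = 5.87e-04 by limma), and the gene passed the threshold in all 8 fits without 1 library and under all 11 other settings. *Scd2* has 1 near-identical gene copy, which the table does not list.

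*Fads1*, the delta-5 desaturase of polyunsaturated fatty acids, had 83.0, 66.1, 62.7 and 73.6 normalized counts in TNFR2+ and 19.2, 26.4, 37.9 and 50.2 in TNFR2- libraries. The populations did not overlap (2.14-fold, log2FC 1.15, 95% interval 0.26 to 2.04), and the adjusted p was 0.109. At this low level it was not called without any one library either (adjusted p 0.0810 to 0.222).

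Of the enzymes that lead to palmitate, *Acly* and *Fasn* had high levels and narrow intervals. *Acly*, which makes cytosolic acetyl-CoA from citrate, had 1386, 1261, 1414 and 1308 normalized counts in TNFR2+ and 1087, 1625, 1130 and 1342 in TNFR2- libraries (log2FC 0.07, 95% interval -0.25 to 0.38). *Fasn*, fatty acid synthase, had 1287 to 2116 and 1444 to 1877 (log2FC 0.02, -0.33 to 0.38). For these 2 genes no bound of the interval lay farther than 0.38 from 0 on the log2 scale. *Acaca*, acetyl-CoA carboxylase, had a lower level per length and a wider interval (log2FC -0.29, -1.04 to 0.45). *Acss2*, which makes acetyl-CoA from acetate, had 197.6, 84.0, 142.8 and 90.6 in TNFR2+ and 225.9, 134.3, 491.8 and 216.3 in TNFR2- libraries (log2FC -0.97, adjusted p = 0.150), with the highest value in TNFR2- replicate 3.

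The elongases did not pass the threshold. *Elovl5*, which extends polyunsaturated chains, had a log2FC of -0.25 (95% interval -0.61 to 0.10), and *Elovl6*, which extends palmitate to stearate, of 0.16 (-0.57 to 0.88). *Elovl1*, which makes very long saturated chains, had 36.8 to 59.0 normalized counts in TNFR2- replicates 1 to 3 and 281.4 in replicate 4, against 73.8 to 112.0 in TNFR2+ libraries. Its log2FC was 0.14 with all libraries and 0.76 without TNFR2- replicate 4. The 9 genes had 6 values above 0 and 3 below, with a median of 0.07, beside 7 above and 6 below with a median of 0.02 once the 4 genes of esterification and efflux were added.

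A list of 25 further genes of fatty acid synthesis and activation, 15 of them tested, held 2 that rose, *Hacd3* and *Acsl5*, and none that fell, with a median log2FC of 0.31. Among all tested genes 4.52% were called higher and 3.39% lower, with a median log2FC of -0.01. *Hacd3*, a dehydratase of the elongation cycle, had 1310, 1174, 1679 and 1041 normalized counts in TNFR2+ and 705.5, 333.5, 675.7 and 362.5 in TNFR2- libraries (log2FC 1.38, adjusted p = 0.00475, and 0.0561 without the intensity trend). *Acsl5*, which activates long-chain fatty acids to acyl-CoA, had 573.8 to 808.5 in TNFR2+ and 252.9 to 413.5 in TNFR2- libraries (log2FC 1.04, adjusted p = 0.00487), and 404 of its exon bases face *Zdhhc6* on the opposite strand. Other members of the *Acsl* family differed from it in value. *Acsl3* had 43.5, 87.3, 205.4 and 62.4 in TNFR2+ and 170.9, 237.6, 232.7 and 247.3 in TNFR2- libraries (log2FC -1.38, adjusted p = 0.0536), and without TNFR2+ replicate 3 it passed the threshold (log2FC -1.81, adjusted p = 0.00730). On the same strand, 244 exon bases of *Acsl3* (5.6%) are shared with *Utp14b*. *Acsl4* had a log2FC of 0.43 without overlap (adjusted p = 0.112, and 0.0402 with equal library sums) and *Acsl1* of 0.04 (adjusted p = 0.955). *Acsl6* was at 0 in 7 of 8 libraries and was not tested. *Hsd17b12*, the ketoreductase of elongation, had a log2FC of 0.34 (adjusted p = 0.580).

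The genes of cholesterol esterification and export had the narrowest range of the branches, from -0.15 to 0.34. *Abcg1*, an exporter of cholesterol to HDL, had 1326, 1370, 1540 and 1466 normalized counts in TNFR2+ and 1319, 1630, 1716 and 1659 in TNFR2- libraries (log2FC -0.14, 95% interval -0.42 to 0.13). *Abca1*, the exporter to lipid-poor apolipoprotein, had a log2FC of -0.04 (-0.50 to 0.41), and *Soat1*, which forms cholesteryl esters, of 0.34 (-0.33 to 1.01). *Nr1h2*, the liver X receptor beta, had 790.5 to 1175 in TNFR2+ and 956.0 to 1246 in TNFR2- libraries (log2FC -0.15, -0.51 to 0.21). The other liver X receptor gene, *Nr1h3*, had between 0 and 37.3 normalized counts, with a mean under 10, and was not tested. Of 13 tested genes in a further list of efflux, oxysterol and storage genes, 1 was called lower, beside 3.39% of all tested genes. This was *Abca7*, a lipid transporter related to *Abca1*. It had 687.4, 971.9, 960.1 and 903.7 in TNFR2+ and 1628, 1705, 1404 and 2007 in TNFR2- libraries (log2FC -0.94, adjusted p = 0.00274), without overlap.

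Of the pathways that compete for the same intermediates, the 15 genes of the isoprenoid branch, which use farnesyl diphosphate for prenylation, ubiquinone and dolichol, held no called gene, with 2 genes in each direction under an unadjusted p of 0.05 and a median log2FC of -0.10. The 20 tested genes of fatty acid oxidation held none either, with 1 gene in each direction under an unadjusted p of 0.05 and a median of 0.17. At that unadjusted p, 12.3% of all tested genes were higher and 10.7% lower. *Cpt1a*, the mitochondrial entry step of oxidation, had a log2FC of -0.24 (adjusted p = 0.566).

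**Figure D4:**
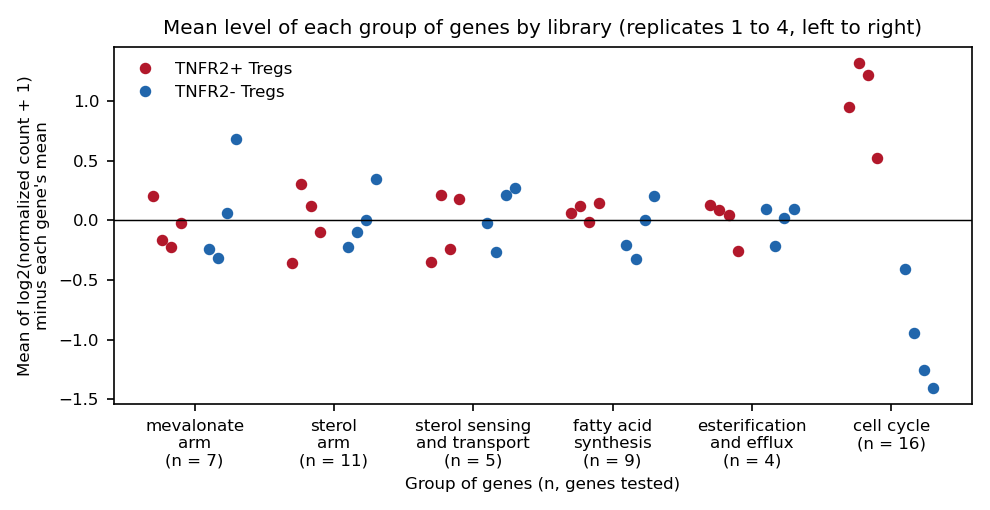
Mean level of each branch by library (y axis, log2(normalized count + 1) minus each gene's mean, averaged over the genes; x axis, the 5 branches and the cell cycle genes). TNFR2+ and TNFR2- libraries overlapped in all 5 branches, with TNFR2- replicate 4 highest in the mevalonate arm at 0.68, whereas the 16 cell cycle genes did not overlap.

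Levels were compared between genes per length, taken as all annotated exons of a gene merged. This length can exceed that of the transcripts made, which lowers the value per kilobase. *Lss* had 10787 such bases and *Fdps* 4208, with mean normalized counts of 97.2 and 98.9. Normalized counts per kilobase of exon, averaged over the 8 libraries, were highest for *Nr1h2* at 302.9, *Acly* at 249.9, *Srebf2* at 239.4, *Abcg1* at 206.0, *Elovl5* at 189.0, *Fasn* at 158.8, *Insig1* at 153.6 and *Srebf1* at 118.1. The sterol enzymes were low, between 9.01 for *Lss* and 71.2 for *Cyp51*, with a median of 26.9 per kilobase, against 45.2 over all tested genes. *Scd2* was at 127.0 in TNFR2+ Tregs, above every sterol enzyme there, and at 47.1 in TNFR2- Tregs, where *Cyp51* at 63.7 and *Ebp* at 49.3 were higher. *Fads1*, at 10.9 over all libraries, was lower than 33 of the 36. On the same scale *Srebf2* was 1.61 times *Srebf1* in TNFR2+ and 2.41 times in TNFR2- Tregs.

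The spread between replicates also differed among the members. The SD of the log2 values was larger in TNFR2- than in TNFR2+ Tregs for 19 of 36 members and for 59.0% of all tested genes. *Insig1* had an SD of 0.02 in TNFR2+ against 0.60 in TNFR2- Tregs, *Hmgcs1* of 0.07 against 0.42, and *Acly* of 0.08 against 0.26. *Msmo1* had the reverse order, with 0.46 in TNFR2+ and 0.09 in TNFR2- Tregs, as did *Mvk*, with 0.81 and 0.28.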

How the data were processed

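Per the labels and the study's methods, the authors extracted RNA from sorted spleen Tregs, made stranded total RNA libraries, trimmed adapters (Trim Galore), quantified the reads with Salmon 1.3.0 against Ensembl transcripts of GRCm38, and scaled counts per gene between libraries with DESeq2 1.28 in R 4.0. The deposited signal is this normalized count per gene, not on a log scale, for 20172 identifiers in 8 libraries. The step from transcripts to genes, any filter on genes and the strand setting are not given in the sources used here.

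Of the identifiers, 20008 matched GENCODE M21 (GRCm38), which gave symbols, positions and exon lengths. Low values (up to 12) lay within 0.1 of whole multiples of a single step in 69.7% to 96.5% of cases in long genes with a single transcript, against 20% by chance, but in 49.1% to 66.9% over all genes. The step gave estimated depths, and no count model was fitted. Depth is a limit for low genes, whose values carry counting error. Other sources of spread between libraries were not separated from it.

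Values were taken as log2(value + 1), so that fold changes of low genes are understated. Genes with a mean of at least 10 were tested with limma 3.58.1 in R 4.3.3 (4 against 4 libraries, no covariate, intensity trend, two-sided, Benjamini-Hochberg). The procedure was tested on simulated data. Gene copies were searched with blastn. No test was made over a list of genes. The members and lists were chosen with earlier results of these data known. A few genes of the related lists are not reported here. All members were named, together with the called genes of 5 related lists and *Insig2*, *Nr1h3*, *Mylip*, *Hsd17b12*, the *Acsl* family and *Cpt1a*. Other settings tried were 2 pseudocounts, 2 filters, 3 scalings, protein-coding genes alone, array weights, no intensity trend, a replicate block, and leaving out each library. Other steps ran in python 3.11.15.

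Marker genes of other cells were summed per library over those in the table. Treg identity genes (11 of 11) lay at 37516 to 43504 in TNFR2+ and 28207 to 33516 in TNFR2- libraries, erythroid markers (2 of 9) at 22.5 to 45.1 and 39.6 to 88.7, platelet markers (2 of 6) at 116.1 to 335.3 and 417.5 to 650.1 (a gap from *Itgb3*, with means of 125.3 and 434.2, and not from *Itga2b*, with 117.0 and 106.8), and CD8 T cell and NK cell markers (7 of 10) at 147.5 to 235.7 and 104.5 to 170.0. Of the 4 CD8 T cell and NK cell markers tested, *Nkg7* was called higher and 3 were not called. The means of *Nkg7* were 64.3 in TNFR2+ and 7.83 in TNFR2- Tregs (log2FC 3.19, adjusted p = 0.00927 by limma). The Treg identity list included *Tnfrsf1b*, the gene of the sorted receptor. Of its 11 genes 9 had a log2FC above 0, *Ikzf2* with the largest means (9763 in TNFR2+ and 5275 in TNFR2-). The 2 below 0 were *Foxp3* (means of 3126 and 3664) and *Il2ra* (2742 and 3482, without overlap).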

Additional observations from a re-analysis of the deposited data

Results flagged for a closer look

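In 5 of 92 groups of 4 libraries (36 members and the 10 named genes beside them, in each population), 1 library stood apart from the other 3 by Dixon's criterion, which flags about 1 group in 20 by chance. *Acat2* had 191.9 normalized counts in TNFR2- replicate 3 against 75.6 to 83.6 in the other TNFR2- libraries. *Hmgcs1* had 259.9 in TNFR2- replicate 4 against 139.8 to 147.1. *Cyp51* had 153.1 in TNFR2- replicate 1 against 312.6 to 342.2, and *Acsl3* had 170.9 in the same library against 232.7 to 247.3. *Sc5d* had 33.5 in TNFR2+ replicate 1 against 99.3 to 118.6. None of these 5 genes passed the threshold with all libraries, and *Acsl3* passed it without TNFR2+ replicate 3 (adjusted p = 0.00730 by limma).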

How the results depend on the processing

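No value that passed the threshold changed direction under any setting. The count of members higher was 1 with all libraries and 1 to 2 when each library was left out, 2 being reached without TNFR2- replicate 4, where *Pmvk* joined *Scd2*. The count of members lower, and that of sensing genes lower, was 1 and fell to 0 without the intensity trend, with a range of 0 to 1 over left-out libraries. Called sterol synthesis genes numbered 0 to 1 over left-out libraries, and the median log2FC of that branch ranged from -0.23 to 0.18. Of other sterol synthesis and uptake genes, 1 was higher with equal library sums, without the intensity trend, and after rescaling without mitochondrial genes, *Gm26917* and *Gm42418*, and the count lower, 1 with all libraries, was 0 without the intensity trend and 2 with equal upper quartiles. In the isoprenoid branch 1 gene was higher with equal sums and after that rescaling. Of other fatty acid synthesis and activation genes, 1 instead of 2 was higher without the intensity trend and 3 with equal library sums (*Acsl4* added), and 1 was lower (*Acsl3*) with array weights, equal upper quartiles, a mean of at least 50, no filter, protein-coding genes alone and a replicate block, and 0 to 1 over left-out libraries. The cause was not tested.

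Over all genes, 1107 were called, 465 without the intensity trend, and 636 to 1324 over left-out libraries. Replicate numbers showed no pairing of the libraries (correlations of same-numbered libraries' deviations from -0.04 to 0.00), and no TNFR2+ library correlated best with its own number. The best correlation of any TNFR2+ with any TNFR2- library was 0.077, so this check could show little. Whether same-numbered libraries came from the same cells before the sort was not tested. With the replicate block 1183 genes were called, and 1 member was higher and 1 lower as before. With 4 libraries per group, genes at the level of the sterol enzymes had wide intervals. A log2FC of -1.18 (*Tm7sf2*) and of 1.06 (*Hsd17b7*) did not pass the threshold, so differences in them that are not small can also be missed here.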
